A study of Mus musculus with 6 samples.

Results

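Major histocompatibility complex (MHC) class I presentation was followed through 10 genes, taken by their symbols from the 50763 gene symbols of the table: B2m, H2-K1, H2-D1, H2-Q4, H2-T23, Tap1, Tapbp, Psmb8, Psmb9 and Nlrc5. All 10 were in the table, and all 10 were among the 19313 genes with enough counts to be tested. RNA had been sequenced in bulk from mouse bone marrow CD34- KSL cells, a sorted population that carries c-Kit and Sca-1, lacks lineage markers and CD34, and is enriched for long-term haematopoietic stem cells. Of the 6 libraries 3 were from EGFR-DN mice and 3 from EGFR-WT mice, both carrying Tal1-tTA+ and TRE-EGFR-tr+. The tTA activator drives TRE transgenes until doxycycline blocks it, and Tal1 names the gene whose regulatory sequence directs tTA, a gene active in blood stem and progenitor cells. EGFR-WT mice drank water with 0.2 g/L doxycycline and made the wild-type epidermal growth factor receptor only. EGFR-DN mice drank water without it and also made a receptor that lacks the cytoplasmic kinase domain. Doxycycline was thus given to 1 group only, and its effect and that of the transgene cannot be told apart. The labels give no age, sex or strain, and class I heavy chain genes differ in sequence between mouse strains. They do not say which libraries came from separate animals, so every p-value measures the spread between these libraries, which may be partly technical.

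Class I molecules show short peptides from inside the cell to CD8 T cells and natural killer cells on the surface of nearly all nucleated cells. Peptides are cut by the proteasome, in which interferon-inducible subunits can replace the constitutive ones, pumped into the endoplasmic reticulum by the TAP transporter, and loaded with the help of tapasin onto a heavy chain paired with beta-2 microglobulin. Interferon-gamma raises most of these genes together, and the transactivator NLRC5 acts on the shared promoter elements of class I genes, while in blood stem cells surface class I also governs recognition by natural killer cells.

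The libraries held 24073133 to 36032428 counts, so that 3 counts corresponded to 0.0833 to 0.125 CPM (counts per 1e+06 counts, scaled by the trimmed mean of M-values throughout). EGFR-DN replicate 3 stood apart: 8 rRNA-like genes made up 25.4% of it and only 4.71% to 6.15% of each of the others. Ribosomal protein genes made up 0.914% of it and 2.49% to 2.71% of the others. Fold changes of the 10 genes, and of most other genes of the pathway named, are therefore also given without it. Egfr had 4022, 4758 and 991 counts in EGFR-DN replicates 1, 2 and 3 and 6 counts in each EGFR-WT library, which follows the labels. In EGFR-WT this was 0.160 to 0.237 CPM, so RNA of the wild-type receptor was barely detected there. Counts by gene symbol do not separate it from the truncated form. Egfr was the 1 gene of all tested past the adjusted threshold of 0.05 (log2 fold change 9.01, SE 0.53, adjusted p = 0.00981 by the quasi-likelihood test of edgeR). The call was lost under limma-voom or without any 1 of the EGFR-WT libraries. All 12 stem cell markers examined, among them Procr, Slamf1 and Hlf, exceeded 3 counts in every library. Of these 12, Procr, Esam and Ctnnal1 were lower in every EGFR-DN library than in any EGFR-WT library, at 15.1 to 32.4 against 43.0 to 74.9 CPM for Procr, 45.1 to 56.8 against 74.8 to 91.1 CPM for Esam and 23.6 to 29.4 against 36.3 to 51.6 CPM for Ctnnal1. Their adjusted p was 0.0495, 0.0158 and 0.113 by DESeq2 and 0.690 each by edgeR. EGFR-DN was lower without overlap in 8.71% of all genes tested. Genes listed as markers of other cells were also detected. For 5 of the 7 other lists the summed level was higher in every EGFR-DN library than in any EGFR-WT library. The margin was narrow for the T and natural killer cell list and the B lineage list. Such sums do not show that these cells were present, which was not tested. For the neutrophil list of 8 genes the sums were 684 to 1359 CPM against 277 to 453, with Ngp, Ltf, Camp and Ly6g at or under 3 counts in at least 1 library. For the 9 dendritic cell and macrophage genes they were 182 to 259 against 106 to 133 CPM, with Cd209a, Xcr1, Siglech, Adgre1 and C1qa at or under 3 counts in at least 1 library. For the 8 T and natural killer cell genes they were 168.2 to 262 against 140 to 168.1 CPM, with Cd3e, Cd3d and Trac so low, and for the 6 B lineage genes found they were 43.8 to 61.0 against 34.7 to 43.5 CPM, with Pax5 so low. The 6 stromal and endothelial genes summed to 82.2 to 158 against 61.1 to 76.7 CPM, with Cdh5 and Col1a1 so low. A single gene made up most of several sums: in EGFR-DN Mpo was at 648 to 1261 CPM, Flt3 at 169 to 224, Nkg7 at 150 to 226 and Pecam1 at 69.5 to 143. Klrb1c of the T and natural killer list lay the other way, at 4.78 to 8.14 CPM against 9.99 to 26.4. Cd3g and Ncr1 of that list also had edgeR log2 fold changes below 0, with overlapping groups, while Lck and Nkg7 were above 0. In the stromal and endothelial list Kdr and Lepr were below 0 and Pecam1, Cxcl12 and Col1a1 above. Xcr1 was below 0 among the dendritic cell and macrophage genes tested. A higher sum thus does not mean that every gene of a list was higher. These genes were singled out after their values were seen. No marker was at 0 in all libraries. In bulk RNA fewer cells of a type and less RNA per cell cannot be told apart, and the part of these marker differences in the class I values was not tested.

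The promoters of class I genes are known for an X2 box that holds a cyclic AMP response element core, TGACG, followed at a set distance by a Y box, an inverted CCAAT written ATTGG. The 250 bases before the annotated start are shown for B2m, H2-K1 and H2-D1, whose windows carry these cores at 1 shared spacing, for H2-Q4, a heavy chain gene whose RNA level followed another pattern, and for Tap1, whose window is shared with Psmb9. The sequences are from RefSeq, build GRCm38.p6, written 5′ to 3′ on the gene's strand. Capitals mark the cores TGACG and ATTGG and the interferon-stimulated response element core GAAANNGAAA on either strand, so a match on the other strand shows as the reverse complement (CGTCA for TGACG).

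B2m (chr2:122147437-122147686, plus strand): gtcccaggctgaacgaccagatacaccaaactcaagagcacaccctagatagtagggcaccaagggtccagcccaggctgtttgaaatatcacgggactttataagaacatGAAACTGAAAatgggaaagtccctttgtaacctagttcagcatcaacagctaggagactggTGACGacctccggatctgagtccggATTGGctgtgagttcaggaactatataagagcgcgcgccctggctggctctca
H2-K1 (chr17:34000348-34000597, minus strand): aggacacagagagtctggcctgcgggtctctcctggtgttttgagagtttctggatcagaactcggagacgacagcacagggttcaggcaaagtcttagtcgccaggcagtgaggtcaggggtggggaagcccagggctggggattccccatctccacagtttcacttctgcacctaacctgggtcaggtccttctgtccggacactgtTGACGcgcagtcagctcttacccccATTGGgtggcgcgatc
H2-D1 (chr17:35262844-35263093, plus strand): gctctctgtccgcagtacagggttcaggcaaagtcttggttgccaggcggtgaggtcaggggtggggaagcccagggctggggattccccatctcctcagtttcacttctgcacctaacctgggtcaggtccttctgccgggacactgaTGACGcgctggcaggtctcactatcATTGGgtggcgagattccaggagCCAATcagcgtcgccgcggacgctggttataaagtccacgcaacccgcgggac
H2-Q4 (chr17:35379367-35379616, plus strand): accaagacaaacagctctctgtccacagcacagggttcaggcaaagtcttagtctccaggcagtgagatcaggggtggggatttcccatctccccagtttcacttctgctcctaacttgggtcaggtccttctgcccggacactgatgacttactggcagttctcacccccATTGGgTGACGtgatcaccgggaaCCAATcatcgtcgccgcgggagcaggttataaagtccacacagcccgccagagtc
Tap1 (chr17:34187306-34187555, plus strand): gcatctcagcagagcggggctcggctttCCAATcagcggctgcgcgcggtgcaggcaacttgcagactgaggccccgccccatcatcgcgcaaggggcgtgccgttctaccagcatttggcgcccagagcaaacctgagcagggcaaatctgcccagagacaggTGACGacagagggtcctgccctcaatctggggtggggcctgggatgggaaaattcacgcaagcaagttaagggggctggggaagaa

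Of the 10 genes, 9 had an entry of 300 bases (250 before and 50 from the start), and Nlrc5 had none. Searched on both strands, TGACG lay in 6 of the 9 windows against 21.0% of 27025 promoters of the same length, and ATTGG in 8 of 9 against 37.9%. GAAANNGAAA lay in 2 of 9, B2m and H2-T23, against 3.49%, and the palindrome TTCNNNGAA in 1 of 9, Psmb8, against 8.47%. None of these motifs overlapped another in the 5 sequences printed. In B2m, H2-K1 and H2-D1, TGACG was followed by 20 bases and then ATTGG on the gene's own strand. This spacing, chosen after the matches were seen, was in 26 of 27025 promoters (0.0962%), 3 of which belonged to these genes and 1 to H2-M3, another class I gene. It lay from position -78 to -49 before the start of B2m, -41 to -12 in H2-K1 and -101 to -72 in H2-D1. These positions depend on the annotated start and are not strictly comparable between genes. For H2-D1, Psmb8 and Psmb9 the first bases of the longest coding transcript were not found in the window. In H2-Q4 the ATTGG at -79 to -75 also had a near match 20 bases before it. This was TGACT, which differs from TGACG in the last base and was not counted. The exact TGACG on that strand lay after ATTGG, at -73 to -69. Tap1 and Psmb9 lie head to head on opposite strands of chromosome 17 with starts 226 bases apart, so their windows share 275 bases and the same matches were found in both. A match is a stretch of letters and was not tested as a binding site.

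In the EGFR-WT cells B2m, H2-K1 and H2-D1 were the most abundant of the 10 transcripts per length and Nlrc5 the least. Levels between genes were compared as CPM per kilobase of the longest coding transcript, mean ± SD over 3 libraries. B2m, the invariant light chain of every class I molecule, was at 2174 ± 177 CPM per kilobase, higher than 99.99% of the tested genes with a coding transcript. The classical heavy chain genes H2-K1 and H2-D1, whose products present peptides to CD8 T cells, followed at 704 ± 39.1 and 596 ± 55.6. Psmb8, the immunoproteasome subunit also called LMP7, was at 230 ± 30.2, and H2-T23, which encodes the nonclassical Qa-1 heavy chain read by natural killer cell receptors, at 153 ± 22.7. Psmb9, the immunoproteasome subunit LMP2, was at 90.3 ± 13.9, Tapbp, which encodes tapasin, at 73.4 ± 3.79, and Tap1, 1 of the TAP transporter's subunits, at 53.5 ± 11.3. H2-Q4, a Qa-region class I heavy chain gene, was at 15.3 ± 1.26 and Nlrc5 at 7.82 ± 1.35, the latter near the middle of those genes (percentile 48.3). Neighbours in this order did not overlap over the 3 libraries, with H2-K1 at 659 to 733 and H2-D1 at 540.0 to 651. The order also depends on the transcript chosen for each length. B2m, H2-K1 and H2-D1 together made up 76.2% to 79.1% of the summed CPM of the 10 genes in each of the 6 libraries.

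**Figure D1:**
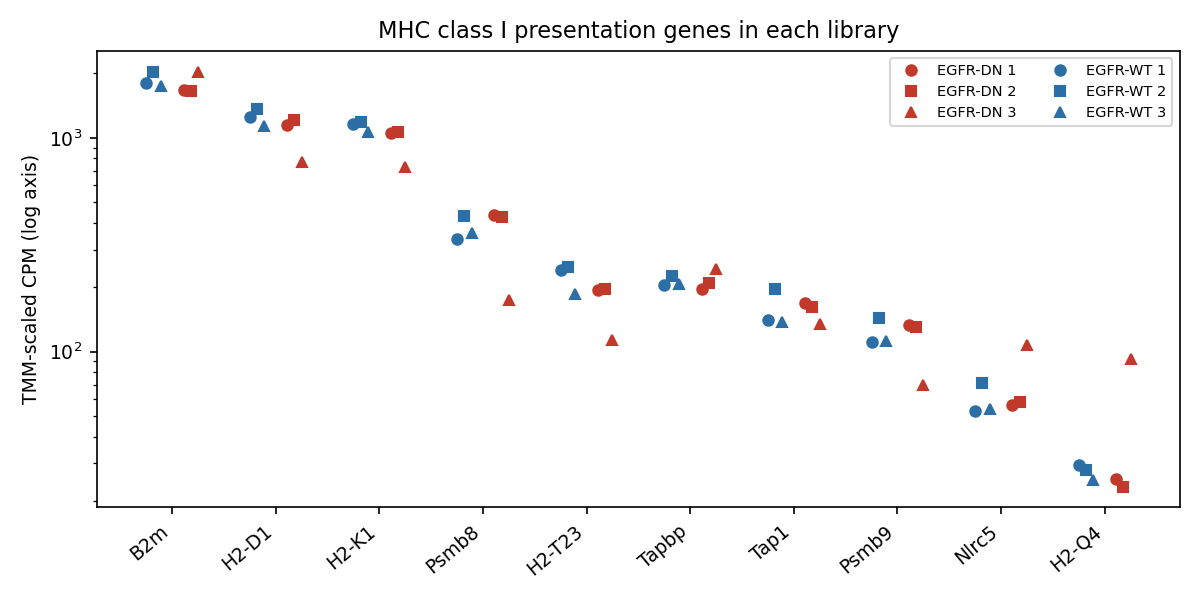
TMM-scaled CPM (log axis) of the 10 class I presentation genes in the 6 libraries, each point 1 library, with EGFR-WT in blue and EGFR-DN in red. The genes span from 2042 CPM for B2m to 23.3 CPM for H2-Q4, and the points that leave their group most often are those of EGFR-DN replicate 3.

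Compared between the groups, none of the 10 genes passed the adjusted threshold by the quasi-likelihood test of edgeR, where 0.00518% of all genes tested did. At an unadjusted p under 0.05 the count was 0 of 10 as well, against 6.69% of all genes. By the Wald test of DESeq2 it was again 0 of 10 past the adjusted threshold (background 0.699%), and 0 of 10 by limma-voom (background 0.0%). Without EGFR-DN replicate 3 it was 0 of 10 by edgeR (background 0.286%, and 13.6% at an unadjusted p under 0.05) and 0 of 10 by DESeq2 (background 4.44%). The fitted log2 fold changes, EGFR-DN minus EGFR-WT, were above 0 for 3 genes and below 0 for 7, with a median of -0.09. Over all genes tested 49.0% were below 0 and the median was 0.01. Without EGFR-DN replicate 3 the members' counts were again 3 and 7 and the median -0.08, but the signs of 6 genes had changed. The members' median was -0.19 without EGFR-DN replicate 1, -0.18 without EGFR-DN replicate 2, -0.16 without EGFR-WT replicate 1, -0.14 without EGFR-WT replicate 3 and -0.004 without EGFR-WT replicate 2.

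B2m was at 1670, 1660 and 2031 CPM in EGFR-DN replicates 1 to 3 and at 1814, 2042 and 1754 CPM in EGFR-WT replicates 1 to 3. The groups overlapped, EGFR-DN replicates 1 and 2 being the lowest libraries and replicate 3 next to the highest. The fitted log2 fold change was -0.07 (SE 0.22, 95% interval -0.60 to 0.46, edgeR adjusted p = 0.907). Without replicate 3 it was -0.17 with an interval of -0.37 to 0.02 and an edgeR adjusted p of 0.422. Of all fits run, only DESeq2 without replicate 3 gave B2m an unadjusted p under 0.05, as it did 13.5% of all genes.

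H2-K1 was at 1051, 1066 and 726 CPM in the EGFR-DN libraries and at 1163, 1187 and 1067 CPM in the EGFR-WT libraries. It was the 1 gene of the 10 with every EGFR-DN value under every EGFR-WT value, as 8.71% of all genes were, and 0 of 10 had the reverse (9.21% of all genes). The margin was small, since EGFR-DN replicate 2 and EGFR-WT replicate 3 lay almost at the same level. The log2 fold change was -0.27 (SE 0.23, interval -0.81 to 0.28, edgeR adjusted p = 0.715), and -0.11 without EGFR-DN replicate 3 (interval -0.28 to 0.06). H2-D1 stood at 1145, 1218 and 766 CPM in EGFR-DN against 1252, 1369 and 1135 in EGFR-WT, so that EGFR-DN replicate 3 was low and the other 5 libraries intermixed. Its log2 fold change was -0.26 (SE 0.25, interval -0.86 to 0.33, edgeR adjusted p = 0.726), and -0.09 without that library (interval -0.30 to 0.13). The profiles of these classical heavy chains were the closest of any pair among the 10, with a root mean square difference of 0.05 between centred log2 CPM over the 6 libraries. Few read-length stretches are common to both: of the 75-base windows of H2-K1, 1.55% also occur in another gene, as do 7.10% of those of H2-D1.

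The nonclassical heavy chain gene H2-T23 was at 193, 197 and 113.5 CPM in EGFR-DN and at 240, 248 and 186 CPM in EGFR-WT. Only EGFR-WT replicate 3 fell among the EGFR-DN values, and EGFR-DN replicate 3 was the lowest. The log2 fold change was -0.42 (SE 0.26, interval -1.02 to 0.18, edgeR adjusted p = 0.690), and -0.21 without that library (interval -0.49 to 0.08). H2-Q4 behaved otherwise, at 25.2, 23.3 and 92.4 CPM in EGFR-DN against 29.5, 28.0 and 25.0 CPM in EGFR-WT. EGFR-DN replicate 3 alone was high, by 1.82 on the log2 scale over the mean of the other 5 libraries. The fitted log2 change, 0.77 (SE 0.52, interval -0.46 to 2.01, edgeR adjusted p = 0.690), turned to -0.18 without it (interval -0.42 to 0.06). Of the 75-base windows of H2-Q4, 21.7% occur in other genes, so its count may hold reads of its neighbours or lack its own. Some genes that share windows with it were also highest in EGFR-DN replicate 3. H2-Q6 was at 99.2 CPM there against 46.1 to 63.7 elsewhere, and Ap1s3 at 32.0 against 7.62 to 8.42. Others were not: H2-Q7, at 47.1 CPM, lay among the other libraries, and Crlf3, at 121 CPM, was lowest there. H2-T23 shares 13.1% of its windows and overlaps the annotated gene A930015D03Rik.

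Of the loading genes, Tap1 was at 168, 161 and 134 CPM in EGFR-DN and at 140, 196 and 137 CPM in EGFR-WT. The groups overlapped, EGFR-WT replicate 2 being the highest, and the fitted log2 change was -0.03 (SE 0.20, interval -0.51 to 0.45, edgeR adjusted p = 0.951) and 0.06 without EGFR-DN replicate 3. Tapbp was at 195, 210 and 243 CPM against 205, 225 and 207 CPM, the steadiest of the 10 within EGFR-WT, with a coefficient of variation of 5.16%. Its log2 fold change was 0.02 (SE 0.16, edgeR adjusted p = 0.954), and -0.07 without EGFR-DN replicate 3. The intervals of Tap1 and Tapbp thus span 0 in both fits and do not show that the levels were equal. Of the windows of Tapbp, 17.5% also occur in other genes, and the gene that shares most of them is Gm19412, which overlaps it.

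The immunoproteasome subunit Psmb8 was at 435, 428 and 174 CPM in EGFR-DN and at 336, 430 and 359 CPM in EGFR-WT. EGFR-DN replicates 1 and 2 were among the 3 highest libraries and replicate 3 was the lowest by far. The log2 fold change was -0.12 (SE 0.35, interval -0.96 to 0.72, edgeR adjusted p = 0.892) and became 0.20 without replicate 3 (interval -0.06 to 0.45, edgeR adjusted p = 0.476). Psmb9, whose start lies beside that of Tap1, was at 133, 130 and 69.5 CPM in EGFR-DN against 110, 144 and 111.99 CPM in EGFR-WT. It had the same order as Psmb8 in that EGFR-DN replicate 3 was lowest. Its fitted log2 change was -0.14 (SE 0.27, edgeR adjusted p = 0.834) and 0.10 without that library. The pair Psmb8 and Psmb9 differed by a root mean square of 0.14 between centred profiles, and each was the other's closest gene among the 10. Tap1, across the shared promoter window from Psmb9, departed less in EGFR-DN replicate 3: its log2 difference from the mean of the other 5 libraries was -0.25, against -0.85 for Psmb9. Their annotated transcripts share 138 windows of 75 bases, so some of their reads may be exchanged.

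Nlrc5, the transactivator of class I genes, was at 56.2, 57.8 and 108 CPM in EGFR-DN and at 52.9, 71.0 and 53.8 CPM in EGFR-WT. EGFR-DN replicate 3 was the highest library and EGFR-WT replicate 2 the next. The log2 fold change was 0.32 (SE 0.29, interval -0.36 to 0.99, edgeR adjusted p = 0.718), and -0.06 without EGFR-DN replicate 3. In EGFR-DN replicate 3, where Nlrc5 was highest, 6 of the other 9 genes had their lowest value. No 75-base window of Nlrc5 or B2m occurs in another gene, although Nlrc5 overlaps 3 annotated genes and B2m overlaps Patl2, and the library kit does not mark strand.

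**Figure D2:**
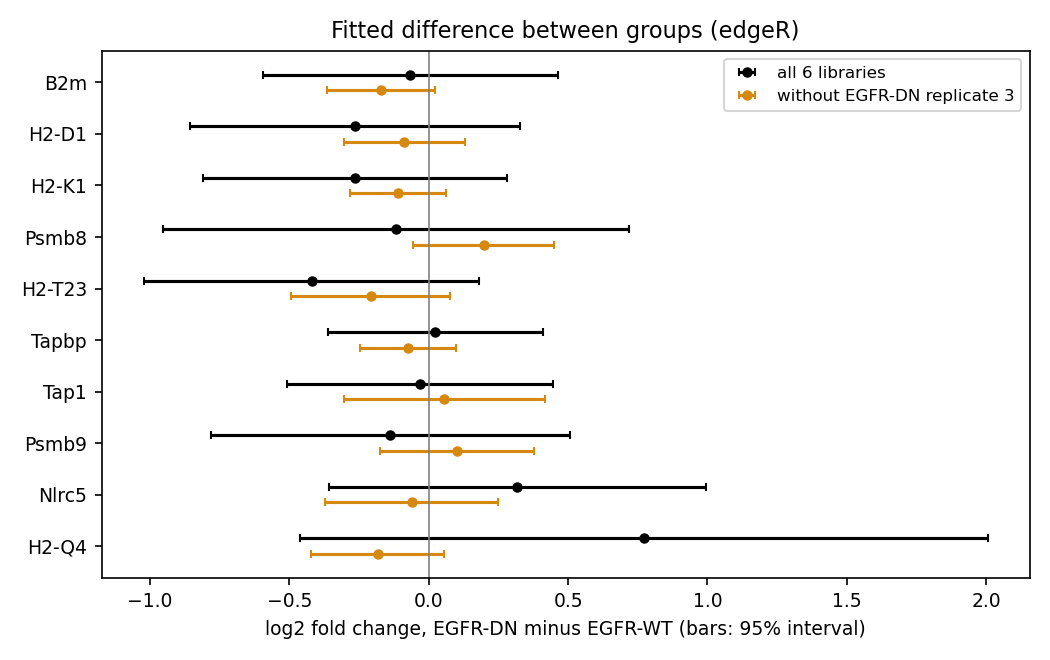
Log2 fold change, EGFR-DN minus EGFR-WT, of the 10 class I presentation genes from edgeR, with bars for the 95% interval, in all 6 libraries (black) and without EGFR-DN replicate 3 (orange). Every bar crosses 0, and the widest is that of H2-Q4, from -0.46 to 2.01, which shrinks to -0.42 to 0.06.

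EGFR-DN replicate 3 was the lowest of the 6 libraries for 6 genes and the highest for 3. Over the 8527 genes of at least 20 CPM it was the lowest for 49.4% and the highest for 38.0%, so the class I genes departed in it about as often as others did. It was more than 0.5 below the mean log2 CPM of the other 5 libraries for 5 of the 10 genes (33.1% of those 8527) and more than 0.5 above it for 2 (25.8%). Its log2 difference from the mean of the other 5 libraries was -1.19 for Psmb8, -0.90 for H2-T23, -0.67 for H2-D1 and -0.61 for H2-K1. It was 0.19 for B2m and 0.22 for Tapbp. The higher share of rRNA-like counts was seen in this library alone. Its part in these values, which went both ways, was not tested.

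**Figure D3:**
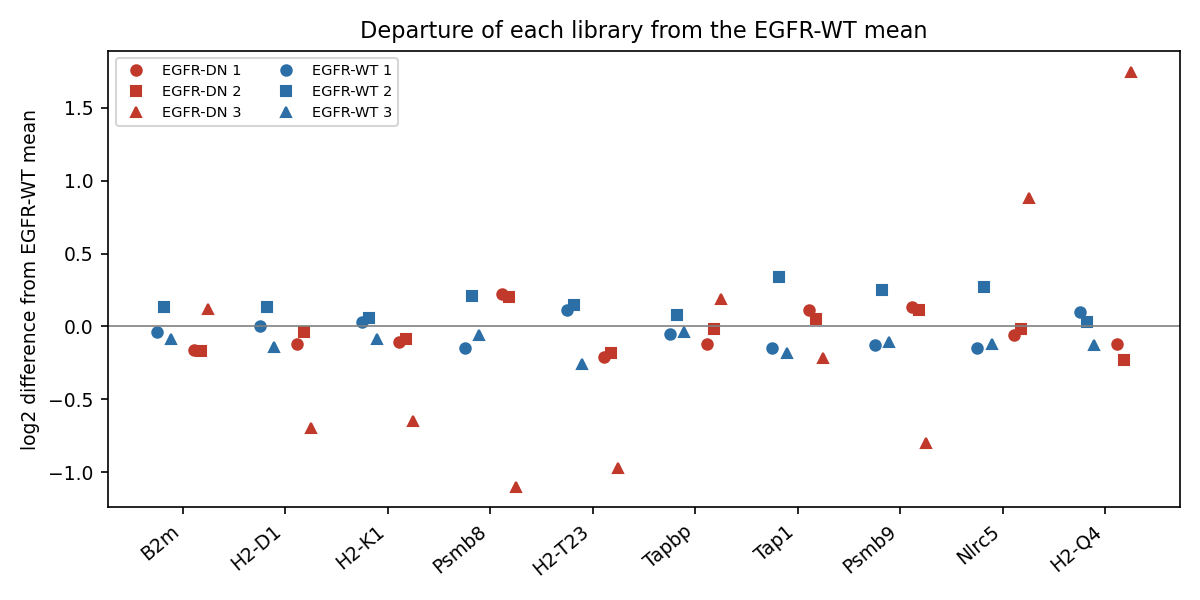
Log2 difference of each library from the EGFR-WT mean for the 10 genes, EGFR-WT in blue and EGFR-DN in red, 1 point per library. EGFR-DN replicate 3 (red triangles) lies at -1.10 for Psmb8 and at 1.75 for H2-Q4, while the other 5 libraries stay within 0.34 of the mean.

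EGFR-WT replicate 2 was the highest of the 6 libraries for 6 of the 10 genes. The median coefficient of variation of the 10 genes within EGFR-WT was 11.2%, from 5.16% for Tapbp to 21.2% for Tap1, against a median of 5.98% over the 8527 genes of at least 20 CPM. The median departure of the 10 genes from the EGFR-WT mean was 0.14 in EGFR-WT replicate 2, and -0.04 and -0.12 in replicates 1 and 3. It was -0.12, -0.03 and -0.43 in EGFR-DN replicates 1, 2 and 3. By this median EGFR-DN replicates 1 and 2 lay within the span of the EGFR-WT libraries, although for B2m and H2-K1 both were below every EGFR-WT library.

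The balance of parts within a library does not depend on scaling between libraries. The summed CPM of H2-K1 and H2-D1 was 1.32, 1.38 and 0.735 times that of B2m in the EGFR-DN libraries and 1.33, 1.25 and 1.26 times in the EGFR-WT libraries. CPM is not scaled for transcript length. Per kilobase B2m, at 2174 in EGFR-WT, stood above H2-K1 at 704 and H2-D1 at 596, so this ratio serves only to compare libraries. In CPM the heavy chain sum was below B2m in EGFR-DN replicate 3 alone. On the log2 scale the ratio differed by -0.22 between the groups (exact two-sided permutation test, p = 0.9, Benjamini-Hochberg adjusted 0.9 over 4 ratios), and by 0.07 without that library. With 3 libraries against 3 the smallest p possible is 0.1.

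Each inducible proteasome subunit takes the place of a constitutive one, Psmb8 of Psmb5, Psmb9 of Psmb6 and Psmb10 of Psmb7. The log2 ratio of Psmb8 to Psmb5 was 3.53, 3.47 and 2.87 in EGFR-DN and 3.15, 3.33 and 3.14 in EGFR-WT. EGFR-DN replicates 1 and 2 were the highest and replicate 3 the lowest, for a difference of 0.08 (exact permutation p = 0.8), or 0.29 without replicate 3. The log2 ratio of Psmb9 to Psmb6 was -0.53, -0.59 and -0.56 in EGFR-DN, inside the EGFR-WT values of -0.73, -0.39 and -0.80 (difference 0.08, exact permutation p = 0.6). For Psmb10 to Psmb7 it was 0.89, 0.98 and 0.91 against 0.94, 1.07 and 0.84 (difference -0.02, exact permutation p = 0.8). Psmb9 to Psmb6 and Psmb10 to Psmb7 kept their ratio in EGFR-DN replicate 3 within the span of the other libraries, although each of these 4 genes had its lowest CPM there.

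**Figure D4:**
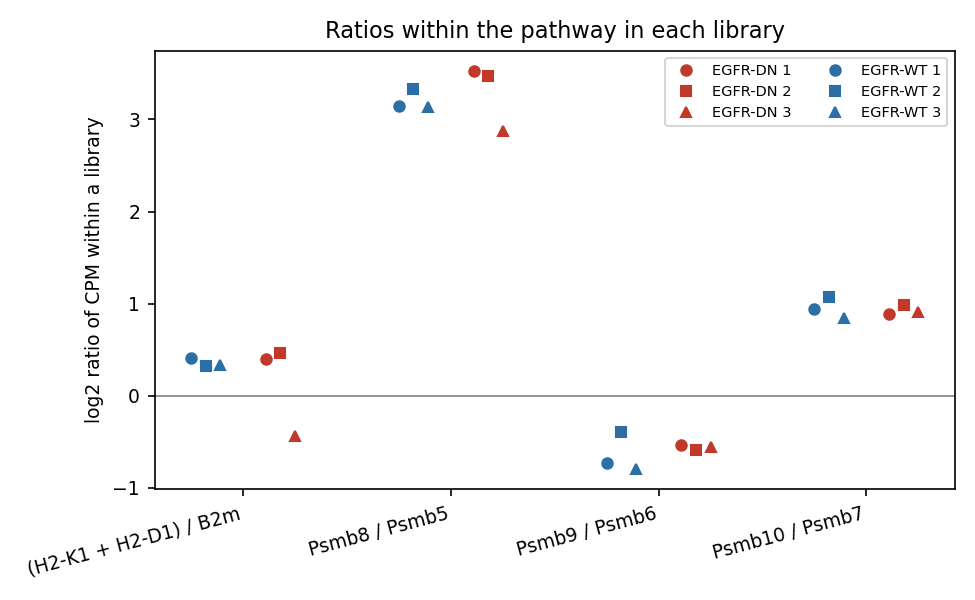
Log2 ratio of CPM within each library for heavy chains to B2m and for the 3 inducible proteasome subunits to the constitutive subunits they replace, EGFR-WT in blue and EGFR-DN in red. EGFR-DN replicate 3 (red triangle) is at -0.44 for heavy chains to B2m against 0.32 to 0.46 in the other libraries, and at -0.56 for Psmb9 to Psmb6, between the values of the others.

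The other genes of the pathway were described by role. Of 15 further class I and class I-like heavy chain genes, 13 were tested, with 3 log2 fold changes above 0, 10 below and a median of -0.29 (-0.19 without EGFR-DN replicate 3). None passed the adjusted threshold of edgeR, and 1, H2-T3, had an unadjusted p under 0.05 and lower values in EGFR-DN, as did 2.4% of all genes. H2-T3 encodes the thymus leukaemia antigen, a class I-like heavy chain that does not present peptides. It had 40, 48 and 15 counts in EGFR-DN and 143, 121 and 91 counts in EGFR-WT, or 1.17, 1.36 and 0.761 CPM against 4.54, 3.22 and 3.59 CPM. Every EGFR-DN library lay under every EGFR-WT library, as in 8.71% of all genes tested, and without EGFR-DN replicate 3 the gap was still there. The log2 fold change was -1.77 (SE 0.33, interval -2.55 to -0.99). By edgeR the adjusted p was 0.642, and 0.0743 without EGFR-DN replicate 3. By DESeq2 it was 0.000489 and 0.000208. The call thus rests on the tool, while the log2 fold change lay between -1.96 and -1.58 in every alternative tried. No 75-base window of H2-T3 occurs in another gene.

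Among the rest, H2-T22, a nonclassical heavy chain recognised by some gamma-delta T cells, was at 63.8, 72.8 and 42.4 CPM in EGFR-DN and 91.9, 95.4 and 68.2 CPM in EGFR-WT. The ranges overlapped by EGFR-DN replicate 2 alone, the fitted log2 change was -0.51 (SE 0.24, edgeR adjusted p = 0.690) and -0.32 without EGFR-DN replicate 3, and 26.1% of its windows occur in other genes. Fcgrt, the neonatal Fc receptor chain that pairs with B2m, showed a log2 change of -0.53 (SE 0.32), and Mr1, which presents vitamin B metabolites, of -0.29 (SE 0.18). Without EGFR-DN replicate 3 these were -0.28 and -0.23, and neither passed the edgeR threshold in either fit.

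**Figure D5:**
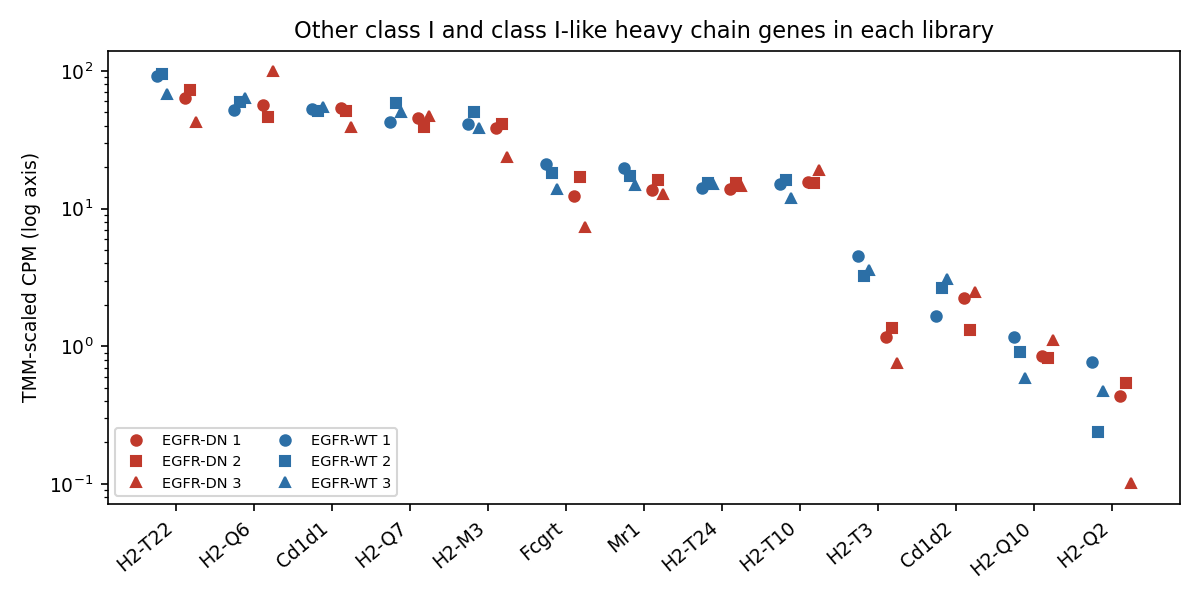
TMM-scaled CPM (log axis) of the 13 further class I and class I-like heavy chain genes tested, EGFR-WT in blue and EGFR-DN in red, 1 point per library. H2-T3 is the gene whose groups separate, at 0.761 to 1.36 CPM in EGFR-DN and 3.22 to 4.54 CPM in EGFR-WT.

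Of 11 other genes for peptide transport, trimming and loading, 5 were above 0 and 6 below, with a median log2 fold change of -0.11 that became 0.11 without EGFR-DN replicate 3, and none passed the threshold of edgeR. Calr, which encodes the loading chaperone calreticulin, was at 322, 345 and 500 CPM in EGFR-DN and 269, 295 and 261 CPM in EGFR-WT. Its groups and those of Lnpep did not overlap, with EGFR-DN higher, as in 9.21% of all genes tested. The fitted log2 change of Calr was 0.50 (SE 0.22, edgeR adjusted p = 0.690) and 0.28 without EGFR-DN replicate 3. Lnpep, a peptide-trimming aminopeptidase, was at 30.4, 30.1 and 80.0 CPM against 28.6, 23.7 and 26.1 CPM, and most of its log2 fold change of 0.84 (SE 0.39) came from replicate 3, since it was 0.21 without it. Uggt1, the glycoprotein folding sensor, showed a log2 change of 0.35 (SE 0.20), and Tapbpl, the tapasin-related peptide editor, one of -0.31 (SE 0.31). Without EGFR-DN replicate 3, where Tapbpl was at 23.4 CPM against 49.2 to 57.3 elsewhere, they were 0.16 for Uggt1 and -0.02 for Tapbpl.

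Of 5 other immunoproteasome and activator genes 2 were above 0 and 3 below, and of the 14 constitutive core subunits 0 were above and 14 below, none past the threshold of edgeR. The medians were -0.13 and -0.26. For the core subunits this came from EGFR-DN replicate 3, where the median departure from the EGFR-WT mean was -1.04, against 0.03 and 0.00 in replicates 1 and 2. Without it 10 core subunits were above 0 and 4 below. The activator genes divided in the same library: Psme3, a nuclear proteasome activator, was at 450 CPM there and at 183 to 202 CPM elsewhere, while Psme2, a subunit of the interferon-inducible activator, was at 39.4 CPM there and at 86.3 to 99.7 CPM elsewhere. Psme1, its partner, showed a log2 change of -0.13 (SE 0.22) and Psmb10 of -0.28 (SE 0.31). Without that library the log2 changes were -0.05 for Psme3, -0.05 for Psme2, 0.04 for Psme1 and 0.003 for Psmb10. The core subunits with the smallest p were Psmb5 (-0.28, SE 0.21), Psma3 (-0.34, SE 0.26), Psma5 (-0.38, SE 0.33) and Psma6 (-0.35, SE 0.34), given as log2 fold changes. Without that library they were -0.09, -0.09, -0.07 and -0.03.

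Of 23 regulators of class I transcription and interferon signalling genes, 15 were above 0 and 8 below, with a median log2 fold change of 0.16 that was 0.02 without EGFR-DN replicate 3. None passed the threshold of edgeR, and 1 had an unadjusted p under 0.05 and higher values in EGFR-DN, as did 4.3% of all genes. That gene was Ifngr2, the signalling chain of the interferon-gamma receptor, at 23.7, 22.8 and 22.8 CPM in EGFR-DN and 14.96, 17.1 and 17.5 CPM in EGFR-WT. The groups did not overlap, as in 9.21% of all genes tested with EGFR-DN higher. Within this list the same held for Nfkb1, Irf2 and Ifnar2, and the reverse for Irf9. For Ifngr2 the libraries of EGFR-DN, replicate 3 included, lay close together. The log2 fold change was 0.48 (SE 0.14, interval 0.15 to 0.82, edgeR adjusted p = 0.690) and 0.49 without EGFR-DN replicate 3, and the DESeq2 adjusted p was 0.188. The interferon-gamma-inducible genes among the 10, such as Tap1, Psmb8 and Psmb9, had log2 fold changes of -0.03, -0.12 and -0.14 beside it. These were 0.06, 0.20 and 0.10 without EGFR-DN replicate 3, and a link to Ifngr2 was not tested. Nfkb1 (0.50, SE 0.25), which encodes an NF-kappa-B subunit, Irf2 (0.70, SE 0.37), an interferon regulatory factor, and Nfya (0.74, SE 0.41), a subunit of the CCAAT-binding factor, had their highest values in EGFR-DN replicate 3. Without it their log2 fold changes were 0.18, 0.11 and 0.11.

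By pattern over the 6 libraries, the genes most like the median centred profile of the 10 were Pdhx, Nudcd2, Ap4b1, Gm16845 and Prkcsh, out of 12685 candidates of at least 4 CPM. Their root mean square differences from it ranged from 0.03 to 0.05 in log2 units. That profile had values of 0.02, 0.05 and -0.36 in EGFR-DN and -0.04, 0.24 and -0.04 in EGFR-WT, so likeness rests mainly on EGFR-DN replicate 3 and EGFR-WT replicate 2.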

How the data were processed

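For each of 6 libraries the authors deposited unscaled estimated counts by gene symbol, 79.4% of them whole numbers. Per the labels' protocols, Nextera XT libraries, which do not mark strand, were made from oligo(dT)-primed cDNA and read as single 75-base reads. Tools named in the submitters' processing notes are DESeq2 1.40.2, R 4.3.1 and DRAGEN, with mm39 as the build. Which annotation was used, and how reads matching several genes were counted, is not given in the sources used here. Estimated counts were rounded, filtered with filterByExpr (19313 of 50763 symbols kept) and scaled by the trimmed mean of M-values. The group comparison used the edgeR 4.0.16 quasi-likelihood test (two-sided, R 4.3.3), p-values being adjusted after Benjamini-Hochberg over all genes tested, with a threshold of 0.05. The SE is the size of the log2 fold change over the square root of F. DESeq2 1.42.0, limma-voom (limma 3.58.1), other scalings and filters, a replicate block and each library left out were alternatives. DESeq2 without EGFR-DN replicate 3 was added after seeing the data. The scripts were tested on simulated data. No pair of libraries was a duplicate (smallest chi-square per degree of freedom 14.9).

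The members and lists were chosen with earlier results of these data known. The text names the 10 members, Egfr, the subunits in the ratios, up to 4 genes of each list with the smallest p, and the 5 genes nearest in profile. Any other gene was chosen after its values were seen. Transcript lengths and 75-base windows come from GENCODE M21 on GRCm38, an earlier build than the counts, so no coordinates other than those of the promoters are printed. The 3-count floors cover counting error only.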

Additional observations from a re-analysis of the deposited data

How the results depend on the processing

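Of the 10 class I genes, 0 passed the adjusted threshold in all 17 fits run, and the members' median stayed below 0 throughout, between -0.194 and -0.004. All genes past the threshold numbered 1 in most fits, 135 with DESeq2, 884 with DESeq2 without EGFR-DN replicate 3, 0 with limma-voom, and 0 to 57 when 1 library was left out. Scaling by library size alone shifted the median of all genes by -0.114, the members' median to -0.189 and that of the regulators and interferon signalling genes to 0.028. DESeq2 without EGFR-DN replicate 3 put the regulators at 0.021 and the receptors that read class I at -0.427. With 1 library left out these medians ran from 0.019 to 0.213 and from -0.427 to 0.523.

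Under DESeq2 without EGFR-DN replicate 3 the sign turned for H2-Q4 (-0.18), Tap1 (0.059), Tapbp (-0.071), Psmb8 (0.20), Psmb9 (0.11), Nlrc5 (-0.059), Psme3 (-0.044), Psmb10 (0.006), Psme1 (0.047), Cd160 (-0.43), Psmb6 (0.038), Psmb7 (0.022) and Gm16845 (0.048). Tapbp also turned to -0.11 with library size alone and -0.025 with no count filter, and Cd160 to -0.059 with limma-voom. With 1 library left out, the values ran from -0.18 to 1.08 for H2-Q4, -0.13 to 0.16 for Tap1, -0.073 to 0.088 for Tapbp, -0.32 to 0.20 for Psmb8, -0.29 to 0.10 for Psmb9, -0.061 to 0.48 for Nlrc5, -0.047 to 0.71 for Psme3, -0.47 to 0.003 for Psmb10, -0.24 to 0.044 for Psme1, -0.43 to 1.32 for Cd160, -0.37 to 0.035 for Psmb6, -0.45 to 0.02 for Psmb7 and -0.15 to 0.048 for Gm16845. The cause was not tested.

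Same-numbered libraries did not deviate together (correlations -0.019, 0.055 and 0.064), so no pairing by number was seen. The deviations are from group means that include EGFR-DN replicate 3, so they cannot exclude a pairing. With the replicate number as a block 1 gene was past the threshold and the members' median was -0.128. Where an arm kept 2 libraries, the spread was pooled over both groups. Every member lay far above the level of 3 counts in every library, so the spread between libraries, not depth, limits these values.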

Other observations

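Of 8 MHC class II presentation genes, which present peptides to CD4 T cells, 3 had a log2 fold change above 0 and 5 below, and none passed the threshold of edgeR. H2-Aa, a class II alpha chain, was at 31.4, 45.6 and 18.7 CPM in EGFR-DN and at 46.6, 114.9 and 51.4 CPM in EGFR-WT. Its groups did not overlap, by a narrow margin, with EGFR-DN lower as in 8.71% of all genes tested. Its log2 fold change was -1.15 (SE 0.44, edgeR adjusted p = 0.690), or -0.89 without EGFR-DN replicate 3 and -0.62 without EGFR-WT replicate 2. H2-Eb1, a class II beta chain, showed a log2 change of -1.18 (SE 0.46), with EGFR-WT replicate 2 at 83.4 CPM and the other 5 libraries at 16.1 to 32.2 CPM. It was -1.11 without EGFR-DN replicate 3 and -0.49 without EGFR-WT replicate 2. Without EGFR-WT replicate 2 the median over the 8 genes was -0.06, against -0.37 with it. Ciita, the class II transactivator, was at 4.75, 6.27 and 5.63 CPM in EGFR-DN and 5.85, 11.9 and 7.14 CPM in EGFR-WT, and H2-DMb1, a chain of the peptide editor H2-DM, showed a log2 change of -0.34 (SE 0.24), or -0.15 without EGFR-DN replicate 3. EGFR-WT replicate 2 was the highest library for H2-Aa, H2-Eb1, Ciita, H2-DMb1 and H2-Ab1, and an EGFR-DN library was the highest for H2-DMa, Cd74 and Ctss.

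Of 12 receptors that read class I, 5 had enough counts to be tested and none passed the threshold of edgeR. The most abundant was Pirb, the paired inhibitory receptor, at 2.68, 3.06 and 3.14 CPM in EGFR-DN and 1.21, 1.39 and 2.92 CPM in EGFR-WT. Klrk1, which encodes NKG2D, Cd160 and Lilrb4a had mean levels of 0.878, 0.508 and 1.22 CPM.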
